A study of Mus musculus with 21 samples.

Results

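The 40 transcripts described here were chosen because their signal in the wound bed was highest 2 days after wounding and lower in intact skin and in the later bed. They are 40 of the 1612 probes with a catalogue identifier (the letter M and 9 digits) on an array of 1687 probes. They were selected on the deposited log scores, which the authors scaled within each array. The mean over 3 arrays had to be at least 1.0 in the bed at day 2, which is the median of every array, and 794 catalogue probes passed. The largest of the means of intact skin, bed day 6 and bed day 15 was then subtracted, which left 244 probes with a positive score, and the 40 highest were taken. Bed and intact values therefore chose the members and are given below as a description. The 9 arrays of the wound edge had no part in the choice, so the tests are made there.

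All groups were skin of female C57Bl/KS-db/+ mice aged 9-13 weeks, and every group, the intact controls included, carried 1 db allele, a mutant allele of the leptin receptor gene. A full-thickness square of back skin and panniculus carnosus with a side of 1.5 cm was removed, and the wound was covered with a polyurethane dressing. Intact shaved skin, wound bed at days 2, 6 and 15, and a strip of wound edge 2 mm wide at days 2, 6 and 15 gave 3 arrays each, 21 in all. The labels name 3 animals per time point and leave unsaid which bed and edge samples, if any, shared an animal. Operation-day skin also appears in the wording of the bed labels, while the titles call these samples wound bed, the name used here.

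A skin wound passes through overlapping phases. Clotting and an influx of neutrophils and then macrophages come first, new tissue with fibroblasts and vessels fills the bed next, and the epidermis grows in from the edge before the matrix is remodelled. Heparan sulfate, which the series title names, is a long, sulfated polysaccharide attached to proteins of cell membranes and matrix that binds growth factors and chemokines. No gene name was matched to any of the 40 catalogue identifiers, so their functions are not described and marker genes could not be used to check the tissues. In whole tissue, fewer cells of a type and less RNA per cell cannot be told apart.

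Values below are log2 signals after background correction and quantile normalization, where 1 unit is a 2-fold difference in signal. A probe was detected on an array when it was brighter than 95% of the blank and empty spots there. Detection differed widely between arrays, from 487 to 934 probes, and the median ratio of signal to local background ran from 1.25 to 2.43. Intact replicate 2, edge day 2 replicate 3 and edge day 15 replicate 3 had the lowest ratios, and bed day 15 replicate 1 the highest. The image names show 3 scan days. On the first, replicates 1 and 2 of every edge group were scanned with intact replicate 1. On the second came replicate 3 of every edge group, replicate 1 of every bed group and the other two intact arrays, and on the third the remaining bed arrays. Of all probes, 974 were detected on at least 3 arrays and were tested. All 40 members are among them, but 39 of the 40 were detected on all 3 bed day 2 arrays, so they would have passed through that group alone.

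In the bed at day 2 the median signal of the 40 members was 11.77, 11.88 and 11.97 on the 3 arrays. In intact skin it was 10.11, 9.93 and 10.40. The bed gave 10.05, 10.32 and 10.72 at day 6 and 11.13, 9.59 and 9.54 at day 15. The 3 arrays of bed day 2 lay above every other array in this median, and bed day 15 replicate 1 came next. At day 15 the bed arrays did not stand together: replicate 1 was the highest of the 3 for 33 of the 40 members, and 39 members were detected there, against 24 and 21 on the other two.

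**Figure D1:**
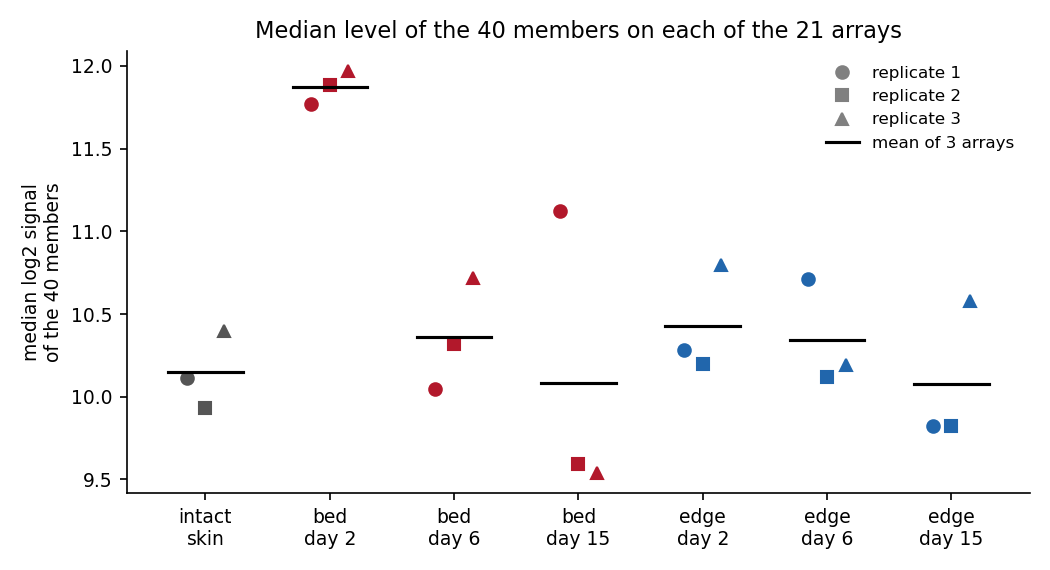
The median log2 signal of the 40 members (vertical axis) is plotted for each array by group, with symbols for replicates and a line for the mean of 3. The bed day 2 arrays sit between 11.77 and 11.97, and the next highest array is bed day 15 replicate 1 at 11.13.

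Per member, the level in the bed at day 2 ran from 9.41 to 15.23 with a median of 11.76, against a median of 10.18 over all 974 tested probes. The SD over the 3 arrays of bed day 2 ran from 0.06 to 1.16 with a median of 0.51, against 0.33 over all tested probes. The medians for members were above those of all tested probes in level and in spread between arrays. Bed day 2 values chose the members, so nothing is read from this. Replicates 1, 2 and 3 of bed day 2 were the highest of their group for 5, 18 and 17 members. Over all 21 arrays, 12 of the 40 members were detected on every array, and 33.2% of the tested probes were. On the bed day 2 arrays, the SD over the 8 spots of each probe was averaged over the arrays. Its median on the log2 scale was 0.21 for members and 0.19 for the other probes. Over the 21 arrays, 15 member spots were saturated, and the members they belong to were not listed. The members lay in 27 of the 48 print blocks of the array, with at most 3 in a block. In 4 pairs both members shared a row of a block or lay in adjacent rows at the same column.

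The median difference over the members was 1.35 between bed day 2 and intact skin, 1.45 between bed day 2 and bed day 6, and 1.43 between bed day 2 and bed day 15. All 40 were higher in each of these, as the choice required on the deposited scale. At least 2-fold higher levels were found for 28 members against intact skin, 28 against bed day 6 and 33 against bed day 15. The same held for 8.42%, 9.55% and 9.45% of all tested probes, and nothing is read from this contrast because the choice used it. All 3 bed day 2 arrays lay above the 3 intact arrays for 28 members and above the 3 of bed day 15 for 21, where the shares of all tested probes were 17.4% and 9.96%. Within the second scan day the median differences were 1.58, 1.38 and 0.57. Within the third, which holds no intact array, they were 1.32 against bed day 6 and 1.86 against bed day 15. The smaller difference from bed day 15 on the second scan day rests on bed day 15 replicate 1, the only day 15 bed array scanned then.

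The members did not share one course after day 2. The next highest score was that of intact skin for 15 members, of bed day 6 for 15 and of bed day 15 for 10. At bed day 6, the level was within 0.5 log2 units of intact skin for 15 members, more than 0.5 above it for 15 and more than 0.5 below it for 10. At bed day 15 the counts were 18, 11 and 11. For 17 members all 3 arrays of bed day 2 lay above all 9 arrays of intact skin and later bed. For the other members at least 1 of those 9 arrays reached into the range of bed day 2. The choice used all of these arrays and no share of all tested probes was computed, so nothing is read from the count.

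**Figure D2:**
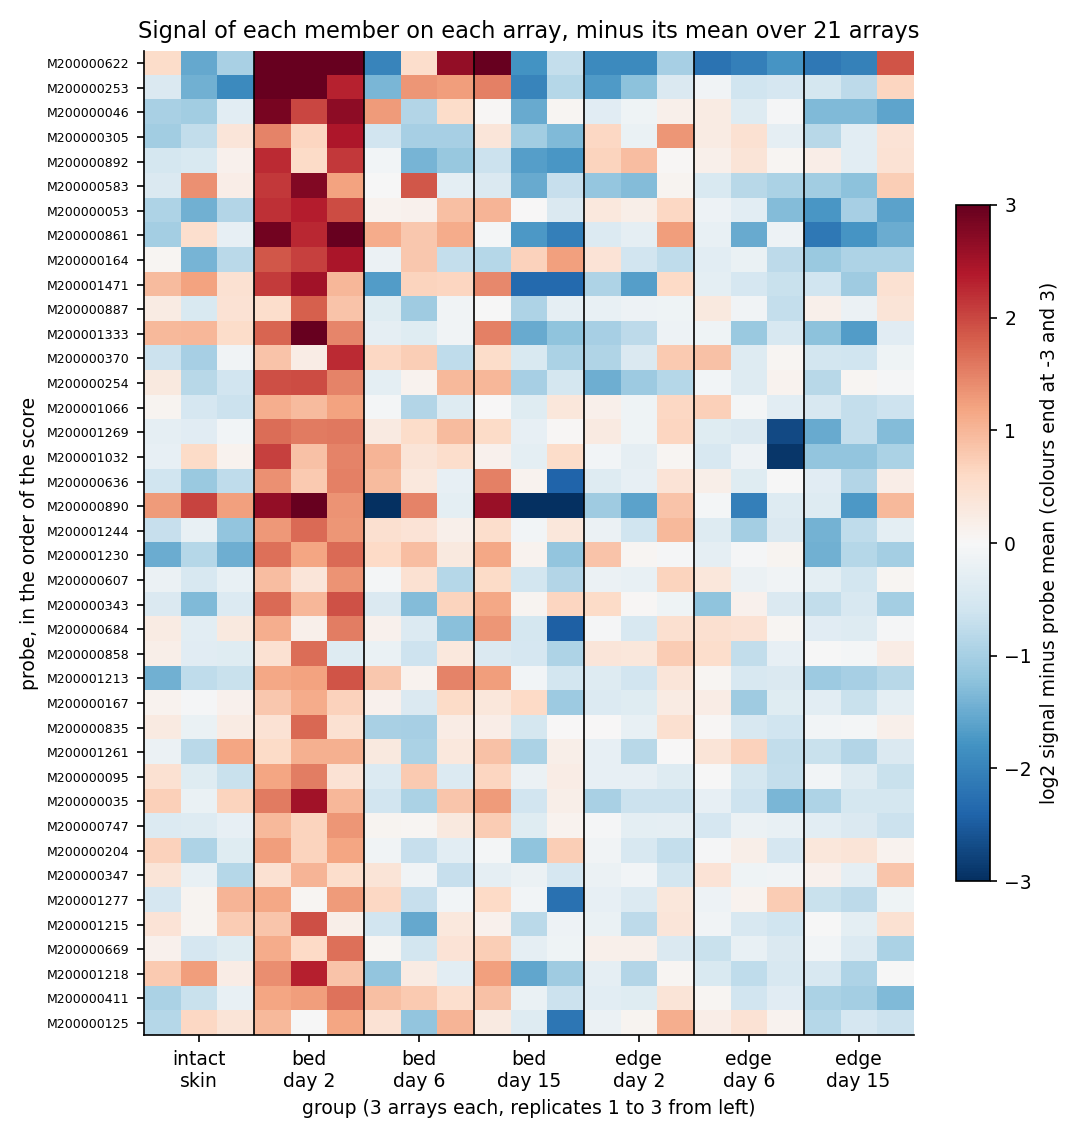
Each row is 1 of the 40 members in the order of the score and each column 1 of the 21 arrays, and the colour gives the log2 signal minus that probe's mean over all arrays. Bed day 2 is above the probe's mean in every cell except M200000858 on replicate 3 and M200000125 on replicate 2, and replicate 1 is the highest bed day 15 array for 33 of the 40 members.

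The score ran from 0.428 down to 0.0894 in units of the deposited table, where 0.1 corresponds to 0.51 to 0.83 log2 units depending on the array. M200000622 had the highest score. Its signal in the bed at day 2 was 13.62, 13.69 and 12.83, against 9.75, 7.66 and 8.23 in intact skin. In the later bed it was 7.22, 9.73 and 11.83 at day 6 and 13.05, 7.41 and 8.48 at day 15. The bed day 15 value of replicate 1 lies within the range of bed day 2, and detection in the later bed was limited to 1 array of 3 at each day. In the edge it gave 7.30, 7.29 and 8.19 at day 2, 6.97, 7.14 and 7.42 at day 6, and 7.06, 7.16 and 11.08 at day 15. Of those 9 edge arrays it was detected on replicate 3 of day 15 alone.

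M200000253, with a score of 0.352, had a similar course in the bed. Its signal was 13.27, 13.50 and 12.29 at bed day 2, against 9.56, 8.55 and 8.07 in intact skin. The later bed gave 8.62, 11.31 and 11.23 at day 6 and 11.49, 8.0 and 9.14 at day 15, all below bed day 2. Its edge level was 8.28, 8.77 and 9.54 at day 2, where it was detected on none of 3 arrays. It was 9.89, 9.38 and 9.49 at edge day 6 and 9.46, 9.21 and 10.63 at edge day 15, where it was detected on all 3 at each day. The difference of edge day 2 from edge day 15 was -0.90 (SE 0.74, adjusted p = 1.0, limma).

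M200000046, next by score, had signals of 13.50, 12.63 and 13.32 at bed day 2 and 9.67, 9.59 and 10.32 in intact skin. The later bed gave 11.91, 9.76 and 11.18 at day 6 and 10.67, 9.13 and 10.70 at day 15. In the edge its values were 10.30, 10.51 and 10.79 at day 2, 10.88, 10.24 and 10.60 at day 6, and 9.32, 9.32 and 9.06 at day 15. Days 2 and 6 overlapped in the edge and all 6 of their arrays lay above the 3 of day 15. The differences from day 15 were 1.30 (SE 0.47, adjusted p = 0.76, limma) at day 2 and 1.34 (SE 0.47, adjusted p = 0.638) at day 6, and neither passed the threshold over all probes.

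The next members by score were M200000305, M200000892 and M200000583. M200000305 gave 11.97, 11.12 and 12.90 in the bed at day 2 against 9.43, 9.75 and 10.84 in intact skin. Its later bed values were 9.91, 9.48 and 9.49 at day 6 and 10.84, 9.43 and 9.16 at day 15. The edge at day 2, with 11.10, 10.28 and 11.80, overlapped the bed of that day, and it was followed by 10.73, 10.93 and 10.20 at day 6 and 9.64, 10.17 and 10.90 at day 15. The groups of the edge overlapped, and day 2 exceeded day 15 by 0.82 (SE 0.52, adjusted p = 1.0, limma).

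M200000892 gave 11.62, 9.95 and 11.51 at bed day 2, 8.84, 8.92 and 9.51 in intact skin, 9.30, 7.99 and 8.23 at bed day 6 and 8.74, 7.73 and 7.62 at bed day 15. Its means in the bed at days 6 and 15, 8.51 and 8.03, lay below the mean of 9.09 in intact skin. The edge held 10.04, 10.31 and 9.42 at day 2, 9.53, 9.78 and 9.44 at day 6, and 9.57, 9.07 and 9.82 at day 15. Edge values overlapped between the days, and the lowest bed day 2 array lay within the range of edge day 2.

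M200000583 was bright in intact skin as well, with 10.98, 12.81 and 11.63 there and 13.54, 14.21 and 12.63 at bed day 2, so the 2 groups overlapped. Bed day 6 gave 11.40, 13.30 and 11.14, and bed day 15 gave 11.00, 9.91 and 10.73. The edge held 10.27, 10.12 and 11.51 at day 2, 10.97, 10.59 and 10.47 at day 6, and 10.38, 10.18 and 12.16 at day 15. All 9 edge arrays lay below the 3 arrays of bed day 2.

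**Figure D3:**
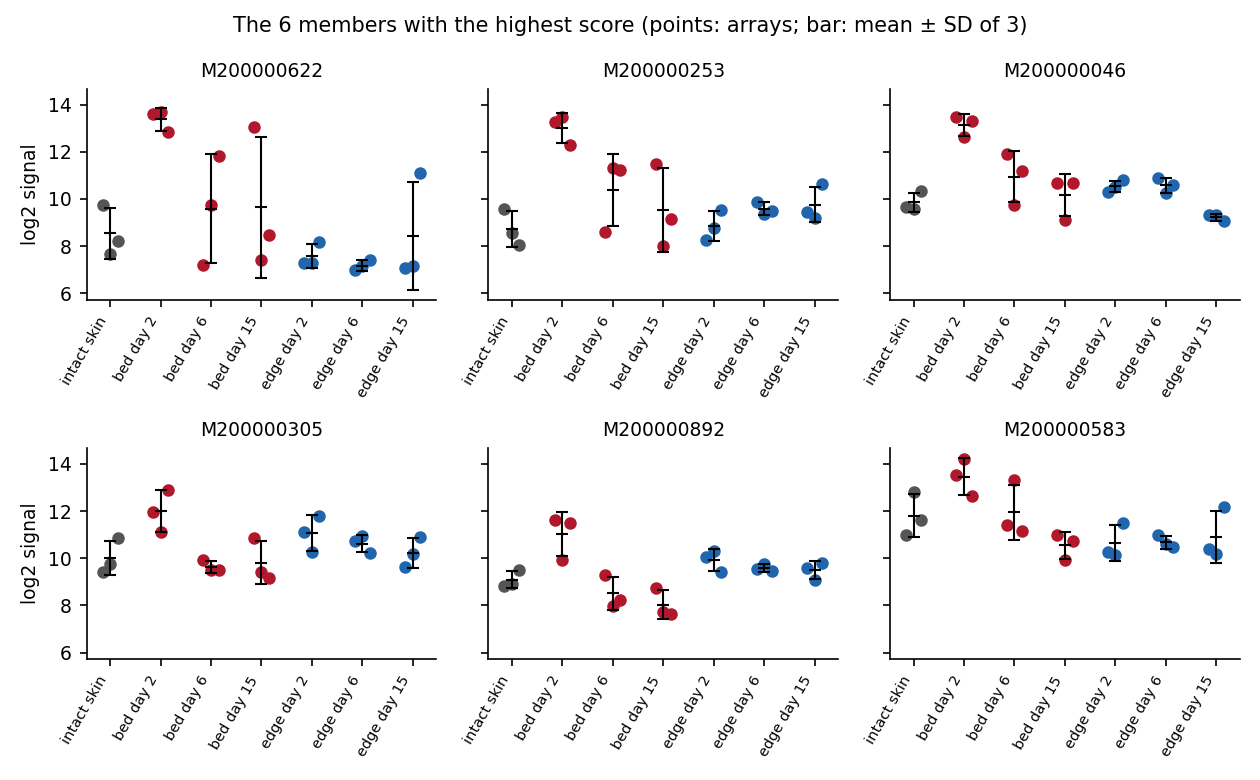
Log2 signal (vertical axis) of the 6 members with the highest score on each array, by group, with a bar for mean ± SD of 3 arrays. M200000622 reaches 13.05 on 1 array of bed day 15 and 11.08 on 1 array of edge day 15, while M200000046 varies little within the edge groups.

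At the limit of the choice, the last members inside were M200000411 with a score of 0.0907 and M200000125 with 0.0894. The first outside were M200001486 with 0.0879 and M200000881 with 0.0858, so the limit does not mark a gap. M200000411 gave 10.87, 10.94 and 11.32 at bed day 2, against 8.74, 9.02 and 9.47 in intact skin and 10.60, 10.47 and 10.20 at bed day 6. M200000125 gave 14.33, 13.34 and 14.55 at bed day 2, which overlapped its 12.50, 13.97 and 13.74 in intact skin. M200001486 gave 9.59, 9.86 and 9.05 at bed day 2 and 8.97, 8.16 and 8.33 in intact skin. The values of M200000881 were 14.02, 14.61 and 15.41 at bed day 2 and 13.12, 13.12 and 14.11 in intact skin.

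The edge arrays, which did not choose the members, were compared between days in a limma fit to all 7 groups, with p-values adjusted over the 974 tested probes by the Benjamini-Hochberg method. The median signal of the 40 members was 10.28, 10.20 and 10.80 at day 2, 10.71, 10.12 and 10.19 at day 6, and 9.82, 9.82 and 10.58 at day 15. These medians overlapped between the days. Members detected on no array of the group numbered 8 at day 2, 7 at day 6 and 9 at day 15. Over the 9 edge arrays the mean level per member ran from 7.74 to 13.33 with a median of 10.39, against 10.17 for all tested probes. The day 2 edge held the highest of the 3 edge means for 22 of 40 members, day 6 for 8 and day 15 for 10. The shares over all tested probes were 35.5%, 34.2% and 30.3%.

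Between edge day 2 and edge day 15 the median difference over the members was 0.32, against 0.01 over all tested probes, and 29 members were higher at day 2, against 51.5% of all tested probes. One member passed the adjusted threshold, where 4 of all probes did (0.411%). At an unadjusted p below 0.05, 8 members were higher at day 2 and 0 lower, where the shares of all tested probes were 1.75% and 1.95%. For 14 members all 3 arrays of day 2 lay above all 3 of day 15, against 7.39% of all tested probes. For 2 members they lay wholly below, and no share of all tested probes was computed for that direction. M200000164, among the 14, and M200000254, among the 2, belong to the 5 members that no array of either day detected. Their order is below what the arrays resolve. M200000204, the other of the 2, was detected on 1 array of day 15 and on no array of day 2. The median difference was 0.25 within the first scan day and 0.46 within the second. It was 0.16 without edge day 2 replicate 3, 0.20 without edge day 15 replicate 2 and 0.49 without edge day 15 replicate 3. With the deposited table it was 0.13.

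Between edge day 2 and edge day 6 the median difference over the members was 0.11, against -0.01 over all tested probes. At day 2, 26 members were higher, against 49.2% of all tested probes, and 6 members were detected on no array of either day. No member was called, with a smallest adjusted p of 0.365 (limma), against 0.616% of all probes. At an unadjusted p below 0.05, 3 were higher and 1 was lower at day 2, with 2.67% and 2.57% of all probes. The lower one was M200000254, which no edge array detected, so nothing is read from it. All day 2 arrays were above all day 6 arrays for 2 members, a share close to the 3.90% of all probes. The direction of the median turned with the scan day, from -0.18 within the first to 0.73 within the second, where each group has 1 array and the day 2 array is one of the 3 dimmest. It was -0.06 without edge day 2 replicate 3 and 0.27 without replicate 2. Without replicates 1, 2 and 3 of edge day 6 in turn it was 0.26, 0.05 and 0.02.

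Between edge day 6 and edge day 15 the median difference was 0.16, against 0.02 over all tested probes. At day 6, 25 members were higher, against 53.2% of all tested probes, and 5 members were detected on no array of either day. No member was called, with a smallest adjusted p of 0.638 (limma), against 0.616% of all probes. At an unadjusted p below 0.05, 6 were higher and 0 lower at day 6, where the shares of all probes were 2.77% and 2.26%. Arrays of day 6 lay wholly above those of day 15 for 8 members, against 8.83% of all probes. M200000164, among the 8, was detected on no array of either day. Here too the scan days differed, with a median of 0.46 within the first and -0.16 within the second, whose day 15 array is one of the 3 dimmest. Without that array the median was 0.30. The replicates that were highest for most members were replicate 3 of edge day 2 (31 members) and of edge day 15 (26 members), both dim arrays, and replicate 1 of edge day 6 (25 members). The part of array brightness in these differences was not tested beyond the values given.

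Setting edge day 2 against the mean of edge days 6 and 15 gave a median of 0.20, against 0.01 over all tested probes. Day 2 was higher for 27 members, against 51.1% of all tested probes. The median was 0.30, 0.33 and 0.05 without edge day 2 replicates 1, 2 and 3 in turn, and 0.30 without edge day 15 replicate 3. No member was called, with a smallest adjusted p of 0.066 (limma), against 0.513% of all probes. At an unadjusted p below 0.05, 6 members were higher and 1 was lower, where 1.23% and 2.36% of all probes were. The lower one was again M200000254, which no edge array detected. An F-test over the 3 edge days called no member, with a smallest adjusted p of 0.0514, and 0.719% of all probes. Its unadjusted p was below 0.05 for 7 members and for 4.41% of all probes.

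M200000053 was the member called in the edge. Its edge signal was 9.89, 9.74 and 10.19 at day 2, 9.42, 9.26 and 8.27 at day 6, and 7.83, 8.56 and 7.97 at day 15. All 3 arrays of day 2 lay above all 6 of the later days, on either scan day. It was detected on all 3 edge arrays at day 2, on 2 at day 6 and on none at day 15. The difference between day 2 and day 15 was 1.82 (SE 0.38, adjusted p = 0.0309, limma), or at least 1.74-fold when the day 15 arrays are taken at their detection limit. With scan day as a block the adjusted p was 0.0316 (limma). The block cannot change the size of the difference, because every edge group was split over the scan days in the same way. The call was lost under 11 of 18 other settings, where the difference stayed above 0 and the adjusted p over all 18 ran from 0.0284 to 0.833. Leaving out 1 array of either group ended it for 5 of the 6 arrays, with adjusted p from 0.0829 without edge day 2 replicate 2 to 0.224 without edge day 15 replicate 1. The other three were edge day 2 replicate 1 (0.129), edge day 2 replicate 3 (0.18) and edge day 15 replicate 3 (0.205).

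In the bed, M200000053 gave 11.77, 11.92 and 11.54 at day 2, then 9.68, 9.70 and 10.47 at day 6 and 10.60, 9.58 and 9.13 at day 15. It was detected on no array of intact skin, where its signal was 8.64, 8.14 and 8.69. The bed at day 2 was at least 5.16-fold brighter than intact skin, and 3.49-fold brighter than the edge of the same day. All 3 bed day 2 arrays lay above all 18 other arrays.

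M200001269 had the largest edge difference of day 2 from the mean of days 6 and 15 among the members. Its edge values were 9.98, 9.59 and 10.36 at day 2, 9.34, 9.28 and 7.0 at day 6, and 8.21, 9.00 and 8.42 at day 15. The 3 arrays of day 2 were the highest of the 9, but the day 6 mean was drawn down by replicate 3. The difference was 1.43 (SE 0.40, adjusted p = 0.15, limma). In the bed at day 2 it gave 11.39, 11.28 and 11.31, the closest agreement of any member, against 9.44, 9.38 and 9.62 in intact skin.

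M200000861, named after its values were seen because it was the brightest member, had the largest difference between edge days 2 and 15. Its edge signal was 12.08, 12.22 and 13.74 at day 2, 12.25, 10.97 and 12.33 at day 6, and 10.33, 10.72 and 11.00 at day 15. Day 2 lay above day 15 on every array and overlapped day 6. The difference from day 15 was 1.99 (SE 0.53, adjusted p = 0.179, limma), and with scan day as a block the adjusted p was 0.0316. Its bed values were 15.37, 14.73 and 15.57 at day 2, 13.60, 13.28 and 13.60 at day 6, and 12.43, 10.75 and 10.43 at day 15, against 11.46, 12.98 and 12.23 in intact skin.

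Other members differed less or the other way in the edge. M200000411 gave 9.38, 9.33 and 10.09 at edge day 2, 9.75, 9.11 and 9.36 at day 6, and 8.75, 8.67 and 8.38 at day 15, where no array detected it. Day 2 was at least 1.37-fold brighter than day 15 (log2 difference 1.0, SE 0.35, adjusted p = 0.726, limma). M200000125 gave 13.18, 13.44 and 14.45 at edge day 2 and 12.50, 12.85 and 12.71 at day 15, a difference of 1.0 (SE 0.59, adjusted p = 1.0). At the other end, M200000254 had 7.0, 7.37 and 7.61 at edge day 2, 8.39, 8.07 and 8.56 at day 6 and 7.64, 8.52 and 8.43 at day 15. It was detected on none of the 9 edge arrays, so its lower edge values at day 2 are below what the arrays resolve and no fold is given.

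**Figure D4:**
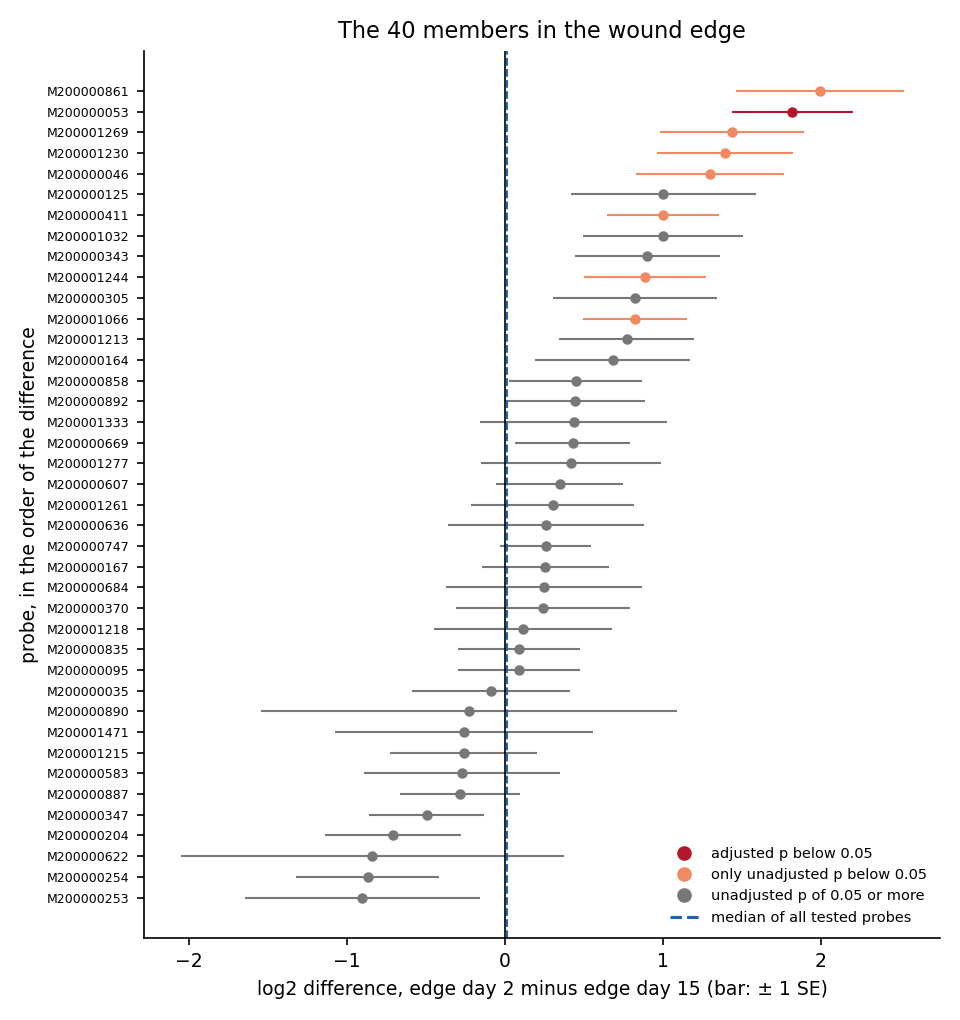
The log2 difference of edge day 2 minus edge day 15 (horizontal axis) is shown for each of the 40 members with a bar of 1 SE, and the dashed line marks the median of 0.01 over all 974 tested probes. Differences are above 0 for 29 members and M200000053 is the one with an adjusted p below 0.05.

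Levels in the edge were also set beside those in intact skin, without a test because intact arrays had a part in the choice. The median difference over the members was 0.14 at edge day 2, 0.06 at day 6 and -0.24 at day 15. Members at least 2-fold higher than intact skin numbered 3, 1 and 1, where the shares of all tested probes were 4.21%, 4.11% and 4.31%. Members at least 2-fold lower numbered 6, 8 and 7, where the shares were 4.41%, 4.93% and 4.62%. Within the first scan day the medians were -0.04, -0.09 and -0.43, and within the second 0.30, 0.04 and -0.09.

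Bed and edge were then set side by side on each day. At day 2 all 40 members had a higher mean in the bed, with a median difference of 1.35, and 31 were at least 2-fold higher, against 9.03% of all tested probes. All 3 bed arrays lay above all 3 edge arrays for 30 members, against 16.0% of all tested probes. All 3 bed day 2 arrays lay above all 9 edge arrays for 28 members, and above all 18 other arrays for 13. No share of all tested probes was computed for the counts over 9 and 18 arrays. Within the second scan day, with 1 array of each group, the median difference was 1.30 and 37 members were higher in the bed. The bed day 2 arrays chose the members, so these counts are given without a test and nothing is read from them about the edge.

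At day 6 the median difference between bed and edge was 0.37, and 7 members were at least 2-fold higher in the bed, against 13.0% of all probes. That median was 0.19 without bed day 6 replicate 3 and 0.23 without edge day 6 replicate 2. At day 15 it was 0.26, and 10 members were at least 2-fold higher, against 10.5%. Within the second scan day the medians were 0.35 at day 6 and 1.05 at day 15. The day 15 median turned to -0.28 without bed day 15 replicate 1, and was 0.55 and 0.64 without replicates 2 and 3. The size of the bed-edge difference at day 2 varied widely between members. It was largest for M200000622, whose bed signal was at least 17.2-fold that of the edge, where no array detected it. For M200000253, also undetected in the edge at day 2, the bound was 13.4-fold. M200000583 was 7.10-fold brighter in the bed and M200000046 6.14-fold, while M200000254 was at least 1.96-fold brighter.

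At the low end was M200000858, with 13.18, 14.41 and 12.34 in the bed at day 2 and 13.09, 13.08 and 13.50 in the edge. The 2 tissues overlapped, with a log2 difference of 0.09. Its edge then held 13.25, 11.99 and 12.47 at day 6 and 12.71, 12.67 and 12.94 at day 15, against 12.92, 12.38 and 12.37 in intact skin. All 3 edge arrays of day 2 lay above those of intact skin and of edge day 15, and the difference from edge day 15 was 0.45 (SE 0.42, adjusted p = 1.0, limma).

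**Figure D5:**
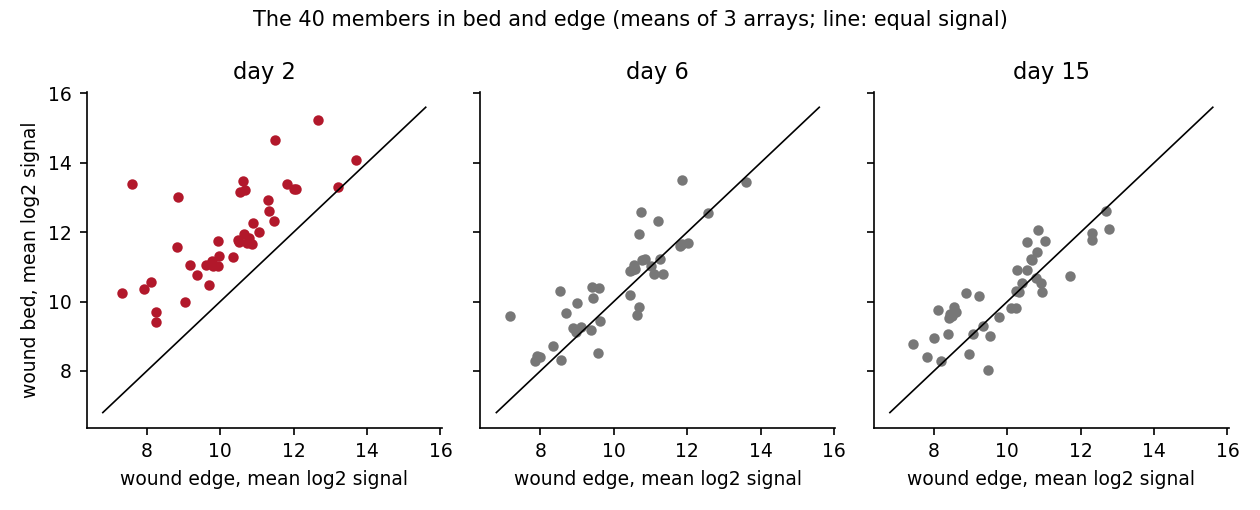
Mean log2 signal over 3 arrays in the wound bed (vertical axis) against the wound edge (horizontal axis) for the 40 members at days 2, 6 and 15, with a line of equal signal. At day 2 all 40 points lie above the line, and at days 6 and 15 they lie on either side, 25 and 24 of them above.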

How the data were processed

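The authors deposited scanner output for 21 arrays of 1 colour (Cy3), made from 500 ng of amplified total RNA per the labels' protocols, with a spot's brightness as a linear intensity. Per the file headers, a 532 nm scan was quantified with software of version 4.1. An array held 13824 spots, 8 for each of 1687 probes and 328 blank or empty. Each spot in the deposited files also has a flag, another type of value whose meaning is not stated in the labels or headers. A second deposited file is a table of scores for the series. Logs of mean spot signals, with no background subtraction and with each array set to median 1 and SD 0.2, gave its scores to within 0.00119. Column medians were 0.999 to 1.0.

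From the intensities, log2 signals were computed with limma 3.58.1 in R 4.3.3: normexp on signal mean and background median (offset 50), the mean over spots without flag 1, and quantile normalization, which hides a shift of most transcripts one way. A linear model with 7 group means (14 residual degrees of freedom) and empirical Bayes gave two-sided p-values, adjusted within each comparison over the 974 probes detected on at least 3 arrays, and a call needed an adjusted p below 0.05. Only comparisons within the edge were tested. Bounds follow from the lowest detected signal of each array. With 3 arrays a group, their number limits the precision, and the p-values reflect only the variation among these samples.

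The members and lists were chosen with earlier results of these data known. Named members are the 6 with the highest score, the last 2 inside and first 2 outside the limit, each one called in the edge, and those with the largest and smallest edge difference of day 2 and bed minus edge difference at day 2. Gene and marker lists were not used, since the 40 identifiers matched no gene (0 of 40 in the RefSeq table). No probe sequence was used here. Same-numbered arrays of the edge days had correlations of -0.37 to 0.60 in their deviations from the group means. The median was 0.30, against -0.07 for arrays of different number. In the edge, replicate 3 was scanned on another day than replicates 1 and 2. The labels name 3 animals per time point, so edge arrays of different days were taken as different animals. Numbers were not treated as pairs, and replicate number was run as a block among the alternatives. Whether bed and edge arrays of the same day shared animals is unsaid. Their correlations had a median of -0.16 for same-numbered arrays and 0.08 for arrays of different number. The procedure was tested on simulated data, in 20 runs with 200 of 974 probes raised at edge day 2. Against edge day 15, it called 37.3% of the 2-fold and 87.1% of the 4-fold changes, and 4.98% of its calls were false. A 2-fold change in the edge can therefore go without a call. The simulated noise was independent between arrays, and far more probes were raised than the 4 called between these days in the data. The simulated shares can therefore be too high for these data. M200000861, 3.98-fold brighter at edge day 2 than at day 15, was not called (adjusted p = 0.179, limma). Alternatives covered normalization, background correction, the deposited table, the filter, flagged spots, the arrays fitted, scan day and left-out arrays.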

Additional observations from a re-analysis of the deposited data

Results flagged for a closer look

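Probes with other identifiers were outside the choice, and 2 of them would have been among the 40 highest had all 1687 probes been ranked. Mm.41573 had a score of 0.2097 (rank 8), with log2 signals of 10.74, 13.12 and 12.79 at bed day 2 and 9.82, 9.96 and 10.45 in intact skin. Its signal was 12.08 on bed day 15 replicate 1, within the range of bed day 2, and 9.09, 8.72 and 9.64 at edge day 2. Mm.4575 had a score of 0.1076 (rank 28), with 13.77, 11.83 and 13.29 at bed day 2, 10.57, 11.13 and 10.59 in intact skin, 13.58, 10.13 and 12.25 at bed day 6 and 11.47, 11.68 and 9.92 at edge day 2.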

How the results depend on the processing

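Counts of calls in the edge moved with the processing. Probes called between edge days 2 and 6 went from 6 to 11 without the 3 dimmest arrays (4 to 10 with 1 array left out). Between days 2 and 15 they went from 4 to 1 without the 3 dimmest arrays (2 to 4). Between days 6 and 15 they went from 6 to 3 with detection on at least 7 arrays (2 to 3), and over the 3 days from 7 to 12 with only the 9 edge arrays or with scan day as a block (6 to 13). Members called between days 2 and 15 went from 1 to 0 without background correction, with the deposited table (in log2 by a mean factor), with all spots, with only the edge arrays, without the 3 dimmest arrays and with replicate number as a block. They went to 2 with scan day as a block. With 1 array of the compared groups left out, as in the other ranges here, they were 0 to 1, and without edge day 6 replicate 3, outside the comparison, M200001269 was called too (adjusted p = 0.0359). For M200000053 the log2 difference ran from 0.98 to 2.04, and with the replicate block the adjusted p was 0.0603. Members called went from 0 to 1 between days 6 and 15 with only the edge arrays (M200000046, adjusted p = 0.0417). They did so for day 2 against the later mean with the 75th percentile over probes detected on all arrays (M200000053, 0.0456) and without bed day 15 replicate 1 (0.0311) or 3 (0.0428), and over the 3 days with only the edge arrays or scan day as a block (0 to 1). Median differences over the members within the edge moved by large factors: 0.13 to 0.49 for day 2 minus day 15 (0.13 with the deposited table), 0.05 to 0.33 for day 2 minus the later mean, and -0.06 to 0.32 for day 2 minus day 6 (0.32 with that percentile). In the bed, the median of bed day 2 against intact was 1.68 with scan day as a block (1.36 to 1.56), and that against edge day 2 was 1.72 with that block. Against bed day 6 the median was 1.17 with the 75th percentile over probes detected on all arrays, 1.03 without background correction and 1.19 with the deposited table. The bed day 6 minus edge day 6 median turned to -0.056 with each array's median as scale, and edge day 6 minus day 15 to -0.065 with that 75th percentile. The medians of edge day 2 and day 6 against intact ranged from -0.08 to 0.22 and from -0.17 to 0.12. Causes were not tested. Of the 40 members, 29 to 37 stayed with 1 array left out (29 without bed day 2 replicate 3), 31 with medians of arrays, 35 with log2 signals, 37 with a floor of 1.1 and 40 with none. Slide as a block was not run, since each array has its own slide. What low members show in the edge is limited: no edge array, dim or brighter, detected M200000164, M200000254, M200000035 or M200000669.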
